A study of Mus musculus with 16 samples.

Results

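Oxidative phosphorylation (OXPHOS) subunits encoded in the nuclear genome were examined in B16F10 allograft tumors, as 90 genes among the 45777 genes listed in the deposited table. Members were taken by symbol, namely every gene whose name begins with Ndufa, Ndufb, Ndufc, Ndufs, Ndufv, Uqcr, Cox4i, Cox5, Cox6, Cox7, Cox8 or Atp5, together with Sdha, Sdhb, Sdhc, Sdhd and Cyc1, without processed pseudogenes and Ndufaf assembly factors. The set held 40 genes of complex I, 4 of complex II, 9 of complex III, 20 of complex IV and 17 of complex V. B16F10 is a melanoma cell line derived from C57BL/6 mice. Its cells had been injected under the skin of mice aged 6 weeks, either lean C57BL/6J mice or C57BL/6J-ob/ob mice, which lack functional leptin and become obese on ordinary chow. Tumors were taken before therapy or after chemotherapy with etoposide (ETS), an inhibitor of topoisomerase II that leaves breaks in DNA, at 20 mg per kg in each of 5 intraperitoneal doses. The 4 groups held 4 tumors each: lean pre-therapy, lean ETS, obese pre-therapy and obese ETS. The obesity is that of a single gene defect, all tumors came from the same melanoma line, and the pre-therapy tumors are the only untreated ones among the 16, so that treatment and time after injection cannot be told apart.

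The respiratory chain moves electrons from NADH and succinate to oxygen and uses the energy released to pump protons across the inner mitochondrial membrane. Complex I oxidizes NADH, complex II oxidizes succinate as part of the tricarboxylic acid cycle, complex III passes the electrons to cytochrome c, complex IV reduces oxygen, and complex V (ATP synthase) lets the protons flow back and makes ATP. Most subunits are encoded in the nucleus and imported, while a small core set of complexes I, III, IV and V is encoded in mitochondrial DNA, so assembly draws on both genomes. Complex IV in particular has alternative subunits that replace their common partner in muscle, testis, lung or tissue short of oxygen.

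The counts summed to between 47199949 and 61655287 per tumor. Markers of melanocytes were abundant in all 16 tumors (8 genes, 11264 to 27992 CPM in sum, CPM being counts scaled to the library's size), as the labelled cell line would have, and the samples were whole tumors with host cells. The summed CPM of 8 macrophage markers was 359 to 1167 in lean pre-therapy tumors, 46.8 to 355 in lean ETS tumors, 40.2 to 230 in obese pre-therapy tumors and 293 to 944 in obese ETS tumors. For 8 fibroblast markers the same sums were 554 to 2277, 102 to 624, 98.5 to 669 and 653 to 5856. After ETS 6 macrophage and 4 fibroblast markers fell in lean tumors and 6 and 8 rose in obese tumors, and before therapy 7 and 1 were lower in obese tumors. Of all genes tested, 22.8% fell in lean tumors, 21.2% rose in obese tumors and 12.9% were lower in obese tumors before therapy. The 1 fibroblast marker lower before therapy lay near that share. T cell markers (8 genes) summed to 29.9 to 49.97 CPM in lean pre-therapy tumors and 1.36 to 4.61 CPM in all others, so that the same group stood apart as for the subunits. Erythroid markers (7 genes) summed to 108 to 481, 0 to 0.158, 860 to 13068 and 1.34 to 38.4 CPM in the 4 groups. The part these had in the results was not tested. In whole tumors, fewer cells of a type and less RNA per cell cannot be told apart. Of the 8 melanocyte markers, 4 were lower in obese than in lean tumors before therapy. With ETS, 2 of them rose in the lean host and 3 in the obese host, where 21.0% and 21.2% of all genes tested rose, so the 2 lay near the share of all genes.

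The subunits were highly expressed. In TPM, a unit scaled both to transcript length and to library size, the 90 genes together took 2.74% ± 0.019 (SD, n = 4) of all transcripts in lean pre-therapy tumors, 3.45% ± 0.087 in lean ETS tumors, 3.56% ± 0.24 in obese pre-therapy tumors and 3.60% ± 0.21 in obese ETS tumors. On this scale lean pre-therapy tumors were thus the group apart, with 2.72% to 2.76%, below every other tumor, among which the lowest had 3.28%. Subunits encoded in mitochondrial DNA took a mean of 10.07% of TPM in lean pre-therapy and 20.99% in lean ETS tumors. In obese tumors they took 9.65% before therapy and 16.02% after ETS. TPM has a common total per tumor, so a larger mitochondrial share leaves less for all other genes. Shares of the 90 genes without these transcripts are not given here. The median level of a member in lean pre-therapy tumors was 178 TPM for complex I, 259 for complex II, 314 for complex III, 388 for complex IV and 466 for complex V. Atp5b, the catalytic beta subunit of ATP synthase, was the highest of all, with 1916 ± 128 TPM in lean pre-therapy tumors, 2042 ± 156 in lean ETS tumors, 2403 ± 94.1 in obese pre-therapy tumors and 2053 ± 164 in obese ETS tumors. Within a group the members had a median coefficient of variation between tumors of 9.30% to 15.3%, against 13.8% to 18.0% over all genes tested. The levels compared were unlike, with a median of 147 CPM for members and 17.2 for all genes, and genes of matched level were not compared. Of the 90 members, 83 had a count above 0 in every tumor and were tested among 16209 genes, and the remaining 7 are described separately.

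**Figure D1:**
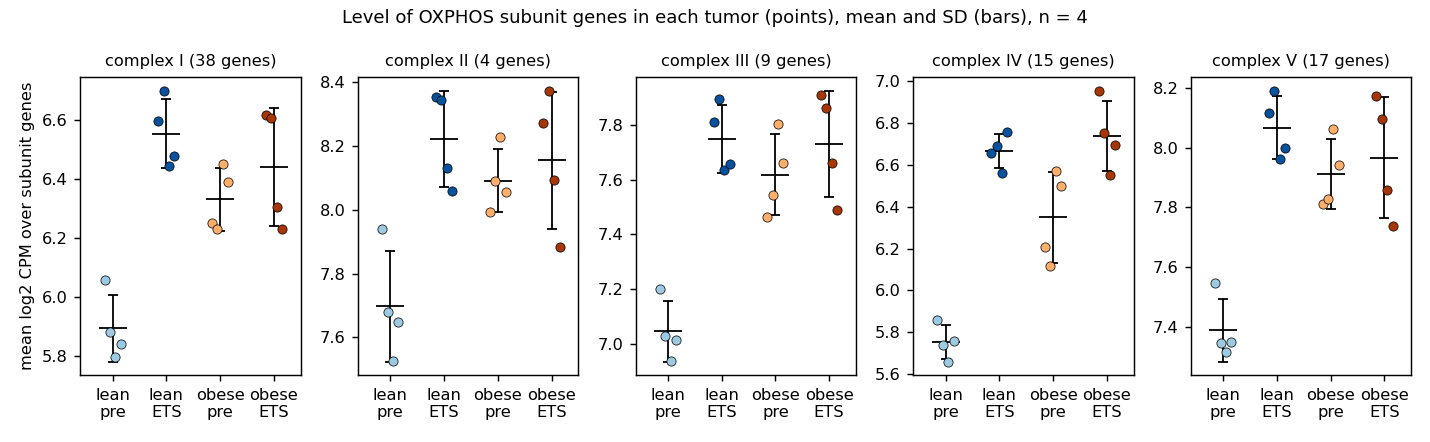
Mean log2 CPM over the tested subunit genes of each complex (y axis, a separate range for each complex) in the 4 groups (x axis), with points for single tumors and bars for the mean and SD of 4 tumors. In every complex the mean of the lean pre-therapy tumors is the lowest, and all 4 of these tumors lie below all others except in complex II, where obese ETS tumor 4 (7.88) is below lean pre-therapy tumor 1 (7.94).

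After ETS nearly the whole set was higher in lean tumors. Of the 83 members tested, 80 rose at an adjusted p under 0.05 and 0 fell, while 21.0% of all tested genes rose and 22.8% fell. The median log2 fold change of the members was 0.67, which is 1.60-fold, against -0.01 over all genes. The 4 lean ETS tumors lay above all 4 lean pre-therapy tumors for 73 members in CPM, where 20.8% of all genes did so. Rises were found in 37 of 38 genes of complex I, 4 of 4 of complex II, 9 of 9 of complex III, 13 of 15 of complex IV and 17 of 17 of complex V. The 3 members that did not pass were Ndufs8, an iron-sulfur subunit of complex I (log2 fold change 0.40 ± 0.16 (SE), adjusted p = 0.0539), and the alternative complex IV subunits Cox4i2 and Ndufa4l2. On the TPM scale, where the median of all genes moved to -0.28, 52 members rose and 0 fell by limma, where 8.33% of all genes rose, and the members' median was 0.30. Members have short transcripts (median 607 bases, against 1436 over all genes with a length) and high levels, and of all tested genes of at most 1000 bases 27.3% rose. Of all tested genes with a mean over 100 CPM, among them 55 members, 32.2% rose.

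Sizes were moderate. A change of at least 1.5-fold was seen in 56 members, and one of at least 2-fold in 6. These were Cox7a1 and Cox4i1 of complex IV, Uqcrh and Uqcr11 of complex III, and Ndufa13 and Ndufa11 of complex I. Uqcrh, the hinge protein of complex III, had 102, 93.1, 96.7 and 93.8 CPM in lean pre-therapy tumors and 222, 226, 197 and 215 CPM after ETS. All treated tumors thus lay well above all untreated ones, with a log2 fold change of 1.16 ± 0.13 (adjusted p = 1.22e-05). Uqcr11, a small subunit of the same complex, had 64.9, 65.4, 60.3 and 64.0 CPM before and 138, 157, 129.6 and 135 CPM after ETS (1.14 ± 0.12, adjusted p = 1.06e-05). Cox4i1, the common form of the regulatory subunit 4 of cytochrome c oxidase, went from 356, 299.8, 279 and 293 CPM to 671, 727, 587 and 626 CPM (1.09 ± 0.14, adjusted p = 5.49e-05). For none of these genes did the groups overlap.

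In complex I the largest rise was that of Ndufa13, an accessory subunit also known as GRIM-19, with 119, 94.6, 91.1 and 94.0 CPM before and 219, 255, 186 and 193 CPM after ETS (1.10 ± 0.16, adjusted p = 0.000115). About 30.0% of its exon bases overlap the antisense gene Tssk6, and whether counting used the strand is not given in the sources used here. The 7 core subunits of complex I, which hold the flavin, the iron-sulfur clusters and the quinone site, had a median log2 fold change of 0.43, with 6 of 7 passing, and the 29 accessory subunits one of 0.68, with 29 of 29 passing. Ndufs1 and Ndufs7, both core subunits, and Ndufs4, an accessory subunit, were just inside the threshold at 0.30, 0.29 and 0.28 on the log2 scale (adjusted p = 0.0444, 0.0494 and 0.0426). In complex II, the iron-sulfur subunit Sdhb rose most (0.67 ± 0.15, adjusted p = 0.0028), followed by the membrane anchor Sdhc (0.61), the other anchor Sdhd (0.44) and the flavoprotein Sdha (0.40). Cyc1, the cytochrome c1 of complex III, rose by 0.69 ± 0.19 (adjusted p = 0.00814), with groups that overlapped.

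In complex V the rise was spread over all parts of the enzyme. The median log2 fold change was 0.67 for the 5 subunits of the F1 head, 0.69 for the 4 of the peripheral stalk, 0.78 for the 3 genes of the c-ring and 0.76 for the 5 small membrane subunits. Atp5h, subunit d of the stalk, rose most, from 164, 127, 121 and 122 CPM to 256, 299.6, 219 and 241 CPM (0.92 ± 0.13, adjusted p = 0.000114). The smallest rise was that of another stalk subunit, Atp5pb (0.35, adjusted p = 0.0125). A pair of members with wider functions rose as well. Cox7a2l, described as a factor of supercomplexes of complexes III and IV, rose by 0.98 ± 0.11 (adjusted p = 1.18e-05). Supercomplexes were not measured, and whether the form made in this strain joins them is not known from these data. Ndufab1, the mitochondrial acyl carrier protein that serves fatty acid synthesis and iron-sulfur cluster assembly besides complex I, rose by 0.52 ± 0.11 (adjusted p = 0.00172).

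**Figure D2:**
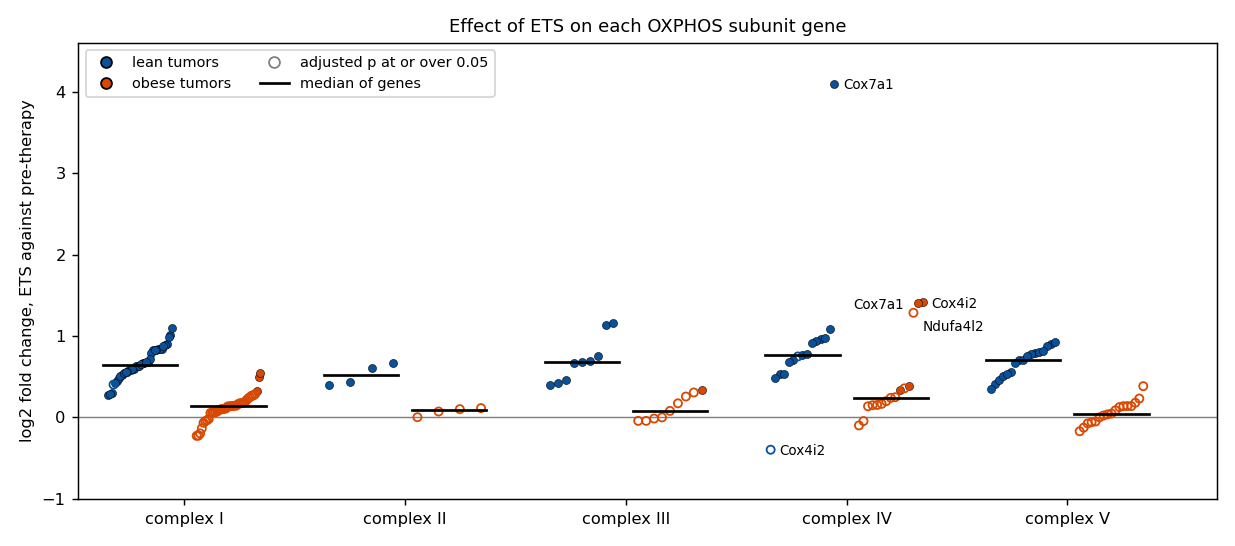
Log2 fold change after ETS (y axis) of every tested subunit gene by complex (x axis), in lean tumors (blue) and obese tumors (orange), with filled points for an adjusted p under 0.05 and black lines for the median of the genes. Medians lie between 0.52 and 0.76 in lean tumors and between 0.05 and 0.24 in obese tumors, and Cox7a1 stands at 4.10 in lean tumors.

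Because nearly all members moved together in lean tumors, their promoters were searched for the letters recognized by transcription factors known to act on respiratory genes. RefSeq promoters of GRCm38.p6, 250 bases before to 50 after the gene start, were on hand for 70 of the 90 members. On either strand, GCGCNTGCG (NRF1) was found in 24 of 70, which is 34.3%, against 14.4% of tested genes and 7.12% of all genes with a promoter. AAGATGGC (YY1) was found in 10, which is 14.3%, against 5.05% of tested and 3.19% of all genes. CCGGAAGT (GABPA and other ETS-domain factors, unrelated to the drug abbreviated ETS) was found in 5, which is 7.14%, against 8.56% and 4.31%, and TCAAGGTCA (ERRA) in 2, which is 2.86%, against 0.348% and 0.466%. The median log2 fold change in lean tumors was 0.70 with the NRF1 letters (n = 24) and 0.68 without (n = 43), 0.92 with the GABPA letters (n = 5) and 0.68 without (n = 62), 0.65 with the YY1 letters (n = 10) and 0.68 without (n = 57), and 0.61 with the ERRA letters (n = 2) and 0.68 without (n = 65), none of which was tested. A match of letters is a description of the window and not a measured site.

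The 200 bases before the start are shown for 7 members, 5′ to 3′ on the gene's strand, with matches to these motifs in capitals, namely for the member with the largest change (Cox7a1), that with the largest difference between hosts in complex I (Ndufv3), the pair from complex III with the largest rises in lean tumors, and 3 with NRF1 letters from complexes IV, II and V. They lie at chr7:30183971-30184170 (+), chr17:31519915-31520114 (+), chr10:80406822-80407021 (-), chr4:116075071-116075270 (-), chr5:115348959-115349158 (-), chr13:74350241-74350440 (-) and chr11:115419920-115420119 (-) of GRCm38.p6, in the order printed.
Cox7a1: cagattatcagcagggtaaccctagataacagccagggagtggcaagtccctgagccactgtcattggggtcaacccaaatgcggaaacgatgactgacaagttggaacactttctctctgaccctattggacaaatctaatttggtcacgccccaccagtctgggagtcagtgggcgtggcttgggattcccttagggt
Ndufv3: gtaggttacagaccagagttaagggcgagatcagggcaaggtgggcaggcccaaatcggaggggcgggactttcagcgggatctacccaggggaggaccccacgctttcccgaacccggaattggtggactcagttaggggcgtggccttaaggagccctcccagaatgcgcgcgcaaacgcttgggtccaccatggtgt
Uqcr11: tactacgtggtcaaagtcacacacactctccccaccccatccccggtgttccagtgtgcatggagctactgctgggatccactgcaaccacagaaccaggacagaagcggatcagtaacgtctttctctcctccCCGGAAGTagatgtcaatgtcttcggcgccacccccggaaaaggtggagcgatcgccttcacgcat
Uqcrh: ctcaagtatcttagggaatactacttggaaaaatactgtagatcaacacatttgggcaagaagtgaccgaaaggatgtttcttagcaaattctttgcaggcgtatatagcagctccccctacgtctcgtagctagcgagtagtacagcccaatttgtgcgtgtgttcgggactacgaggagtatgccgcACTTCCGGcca
Cox6a1: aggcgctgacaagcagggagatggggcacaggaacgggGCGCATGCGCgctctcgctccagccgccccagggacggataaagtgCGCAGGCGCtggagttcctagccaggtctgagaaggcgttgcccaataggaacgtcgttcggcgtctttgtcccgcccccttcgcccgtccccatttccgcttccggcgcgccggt
Sdha: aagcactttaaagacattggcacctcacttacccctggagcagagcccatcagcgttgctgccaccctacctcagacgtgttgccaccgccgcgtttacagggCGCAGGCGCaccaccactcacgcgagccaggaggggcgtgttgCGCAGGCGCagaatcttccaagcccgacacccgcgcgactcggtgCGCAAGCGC
Atp5h: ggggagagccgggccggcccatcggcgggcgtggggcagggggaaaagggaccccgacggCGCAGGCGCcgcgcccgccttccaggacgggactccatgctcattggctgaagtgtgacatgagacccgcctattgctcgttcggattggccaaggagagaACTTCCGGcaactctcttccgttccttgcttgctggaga
No match was present for Cox7a1 and Ndufv3. Uqcr11, Uqcrh and Atp5h each held a GABPA match, Atp5h also held an NRF1 match, Uqcr11 had an NRF1 match that begins 5 bases before the start and runs past the end of the bases printed, Sdha held 3 NRF1 matches, and Cox6a1 held 3, of which the first 2 overlap.

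In obese tumors the same treatment was followed by far fewer changes. Of 83 members, 8 rose and 0 fell, while 21.2% of all genes rose and 19.0% fell. The median log2 fold change was 0.14. The 8 were Cox4i2 and Cox7a1, described below, and Ndufa13 (0.54), Ndufa11 (0.49), Cox7a2l (0.38), Cox6b1 (0.34), Uqcrh (0.33) and Ndufa3 (0.32). Complexes II and V had none, and the medians by complex ran from 0.05 for complex V to 0.24 for complex IV. Uqcrh had 134, 146, 181 and 141 CPM in obese pre-therapy tumors and 222, 217, 178 and 143 CPM after ETS, so that the groups overlapped (adjusted p = 0.0436). The treated tumors split in the same way for Ndufa13, with 206 and 214 CPM in tumors 1 and 2 but 128 and 135 CPM in tumors 3 and 4, against 113 to 125 CPM before therapy, so that tumor 3 was barely above the untreated range (adjusted p = 0.0139). Over all tested members, the mean log2 CPM of obese ETS tumors was 7.22, 7.16, 6.90 and 6.84, the widest spread of any group. The summed melanocyte markers of the same tumors were 26648, 24244, 14555 and 11264 CPM, also higher in tumors 1 and 2, and their part in the split was not tested. The count of 8 depended on these tumors, rising to 14 without obese ETS tumor 3 and to 20 without tumor 4. In those fits 3457 and 3480 of all 16209 genes rose. On the TPM scale, 9 members rose and 4 fell by limma, where 15.9% and 20.6% of all genes did.

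The ETS effects themselves differed between hosts. The difference, lean minus obese, was positive for 52 of 83 members and negative for 1 at an adjusted p under 0.05, where 6.35% and 10.1% of all genes were, and its median was 0.56 on the log2 scale. Of all tested genes with a mean over 100 CPM, 11.6% were positive and 5.16% negative. Calls were made in 22 genes of complex I, 1 of complex II, 5 of complex III, 11 of complex IV and 14 of complex V. Besides Cox7a1, the smallest p were those of Ndufa12, Ndufv3, Uqcrq and Uqcr11. Ndufv3, an accessory subunit beside the NADH-binding site, had 94.6, 78.4, 85.0 and 88.4 CPM in lean pre-therapy tumors, 145, 174, 145 and 173 in lean ETS tumors, 190.4, 155, 179 and 227 in obese pre-therapy tumors and 179, 151, 178 and 219 in obese ETS tumors. Its level thus rose in lean tumors, while the obese groups overlapped (log2 fold change -0.04, adjusted p = 0.81) between 151 and 227 CPM (difference 0.92 ± 0.18, adjusted p = 0.00253). Ndufa12, an accessory subunit, had a difference of 0.70 ± 0.13 (adjusted p = 0.00164), Uqcrq, a small subunit of complex III, one of 0.76 ± 0.15 (adjusted p = 0.00332), and Atp5md, a membrane subunit of ATP synthase, one of 0.81 ± 0.19 (adjusted p = 0.0104). In complex II only Sdhb was called (0.66 ± 0.21, adjusted p = 0.0446). The number of positive calls fell to between 30 and 33 without lean pre-therapy tumor 2, 3 or 4, lean ETS tumor 1, obese pre-therapy tumor 3 or 4, or obese ETS tumor 3, and ran from 36 to 60 without any other tumor. It was 22 on the TPM scale, where 1.41% of all genes were positive. Over all 16209 genes, 1030 were positive with all tumors kept. In the fits that gave 30 to 33 members, 594 to 858 genes were positive, so calls fell over all genes too. In the other fits with a tumor left out, 672 to 1370 were.

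Before therapy the set was already higher in obese tumors than in lean tumors. Of 83 members, 66 were higher and 1 lower in obese tumors, where 13.5% and 12.9% of all genes were, with a median log2 difference of 0.49, or 1.41-fold. Of all tested genes with a mean over 100 CPM, 21.3% were higher and 9.45% lower in obese tumors. In CPM the 4 obese tumors lay above all 4 lean tumors for 68 members, against 16% of all genes. Higher levels were called in 27 of 38 genes of complex I, 2 of 4 of complex II, 8 of 9 of complex III, 13 of 15 of complex IV and 16 of 17 of complex V. Ndufv3 led complex I (1.12 ± 0.13, adjusted p = 1.9e-05), Sdhb complex II (0.51), Uqcr11 complex III (0.72 ± 0.12, adjusted p = 0.000553) and Atp5md complex V (0.77 ± 0.14, adjusted p = 0.000872). Of the core subunits of complex I, 3 of 7 were higher (median 0.26), and of the accessory ones 24 of 29 (median 0.45). Ndufa13, the member of complex I with the largest rise after ETS in either host, had a log2 difference of 0.23 before therapy (adjusted p = 0.299). The lean ETS effect, the difference between the ETS effects and this contrast all use the lean pre-therapy tumors, so that low values there enter each of them. The difference between the ETS effects equals obese minus lean before therapy, less obese minus lean after ETS. Its calls are therefore not separate from those given here.

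After ETS, none of the 83 members differed between obese and lean tumors by edgeR's quasi-likelihood test, where 3.28% of all genes were higher and 2.3% lower, and 4 members had an unadjusted p under 0.05. The exact test also gave 0, whereas DESeq2 gave 1 lower member and limma on TPM gave 2 higher, with 4.09% of all genes higher. The median log2 difference was -0.09, and the members ran from -0.39 for Atp5g2, a gene of the c-ring (adjusted p = 0.0614), to 0.97 for Ndufa4l2 (adjusted p = 0.253). A call missed at 4 tumors a group does not show equal levels, and the spread among obese ETS tumors was the widest of the groups.

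**Figure D3:**
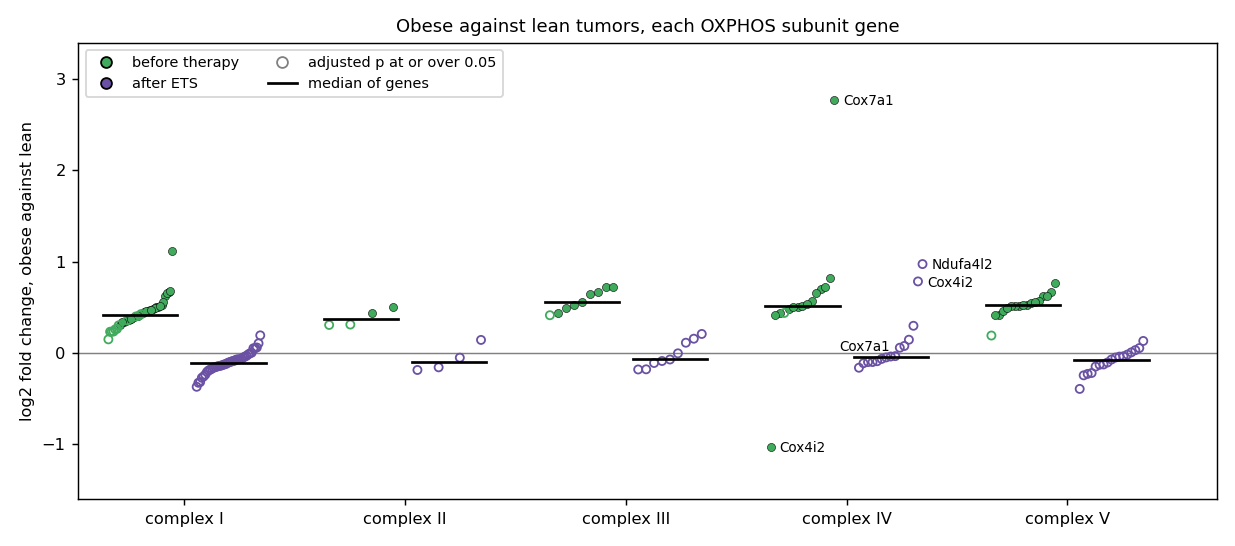
Log2 fold change of obese against lean tumors (y axis) for every tested subunit gene by complex (x axis), before therapy (green) and after ETS (purple), with filled points for an adjusted p under 0.05 and black lines for the median of the genes. Medians lie between 0.37 and 0.55 before therapy and between -0.11 and -0.04 after ETS.

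Cox7a1, the heart and muscle form of subunit 7a of cytochrome c oxidase, had the largest change of all members in lean tumors, in the difference between hosts and between hosts before therapy. It was counted 21, 26, 13 and 31 times in lean pre-therapy tumors and 304, 334, 333 and 385 times in lean ETS tumors, and 101, 94, 178 and 167 times in obese pre-therapy tumors and 422, 326, 478 and 237 times in obese ETS tumors. In CPM these were 0.349, 0.400, 0.201 and 0.492, then 5.42, 6.67, 5.96 and 6.74, then 2.09, 1.87, 2.98 and 2.95, and then 7.65, 6.71, 7.62 and 4.15. The obese pre-therapy tumors thus lay between, without overlap, and the treated groups overlapped each other. The log2 fold change after ETS was 4.10 ± 0.29 in the lean host (adjusted p = 5.52e-07). For obese mice it was 1.40 ± 0.25 (adjusted p = 0.000733), a difference of 2.70 ± 0.37 (adjusted p = 0.000192), and obese tumors exceeded lean ones by 2.77 ± 0.28 before therapy (adjusted p = 5.73e-06). It remained a minor transcript beside its common partner Cox7a2. The log2 ratio of Cox7a1 to Cox7a2 counts was -8.25 ± 0.55 in lean pre-therapy and -4.91 ± 0.16 in lean ETS tumors, a gain of 3.34, and -6.00 ± 0.20 and -4.80 ± 0.29 in obese tumors, a gain of 1.19 (exact two-sided permutation tests, p = 0.0286 each, the smallest that 4 against 4 allows, and 0.137 after adjustment over 24 comparisons). Skeletal muscle is a tissue rich in Cox7a1. The summed CPM of 10 of its markers was 386 and 223 in lean ETS tumors 1 and 2 but 5.28 and 5.41 in tumors 3 and 4, and 3.35, 199, 2.02 and 52.0 in lean pre-therapy tumors. It was 3.55 to 5.11 in obese pre-therapy tumors and 5.78, 489, 4.14 and 4.83 in obese ETS tumors. The part of muscle in the level of Cox7a1 was not tested.

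Cox4i2, the lung form of subunit 4 that is induced at low oxygen, was the only member called in the negative direction in any of the 5 contrasts. It had 0.880, 0.861, 0.866 and 1.05 CPM in lean pre-therapy tumors, 0.820, 0.699, 0.591 and 0.665 in lean ETS tumors, 0.475, 0.279, 0.553 and 0.477 in obese pre-therapy tumors and 1.12, 0.741, 0.637 and 2.28 in obese ETS tumors. It rose after ETS in obese tumors (1.41 ± 0.34, adjusted p = 0.00481), was at -0.40 ± 0.33 in lean tumors (adjusted p = 0.35), and was the only member whose ETS effect was significantly lower in lean than in obese tumors (-1.81 ± 0.48, adjusted p = 0.0171). It was also the only member lower in obese than in lean tumors before therapy (-1.03 ± 0.34, adjusted p = 0.0371), a call that was lost on leaving out any one of the 4 lean pre-therapy tumors or obese pre-therapy tumor 1, 2 or 4. Its counts were 14 to 130 in all. Pericytes are a known source of Cox4i2, and the summed CPM of 8 pericyte markers was 84.7 to 124 in lean pre-therapy, 79.9 to 132 in lean ETS, 69.9 to 72.6 in obese pre-therapy and 112 to 179 in obese ETS tumors, so this sum too was lowest in obese pre-therapy tumors. Singly, only 1 of the 8 markers was called lower in obese than in lean tumors before therapy, near the 12.9% of all genes. Of the 8, 5 rose after ETS in obese tumors, where 21.2% of all genes rose. In lean tumors 1 rose and 2 fell, where 21.0% and 22.8% of all genes did. The part they had in the change of Cox4i2 was not tested.

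Ndufa4l2, a paralog of the complex IV subunit Ndufa4 that is induced by hypoxia, was the most variable of the 83 tested members in every group, with coefficients of variation of 36.2% to 77.0%. Its values were 7.27, 2.60, 2.47 and 2.81 CPM in lean pre-therapy tumors, 4.42, 9.31, 3.33 and 8.40 in lean ETS tumors, 4.28, 3.35, 5.21 and 7.67 in obese pre-therapy tumors and 13.1, 5.33, 5.66 and 25.9 in obese ETS tumors. The groups overlapped, and its ETS effect passed the test in neither host (lean 0.75 ± 0.51, adjusted p = 0.251, obese 1.28 ± 0.52, adjusted p = 0.0591). Ndufa4 itself rose in lean tumors (0.53, adjusted p = 0.00994). The other common partners, Cox6a1, Cox6b1, Cox7b and Cox8a, rose in lean tumors by 0.97, 0.94, 0.48 and 0.78, but the call for Cox7b (adjusted p = 0.0456) was lost in 6 of the 8 fits that left out a lean tumor.

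**Figure D4:**
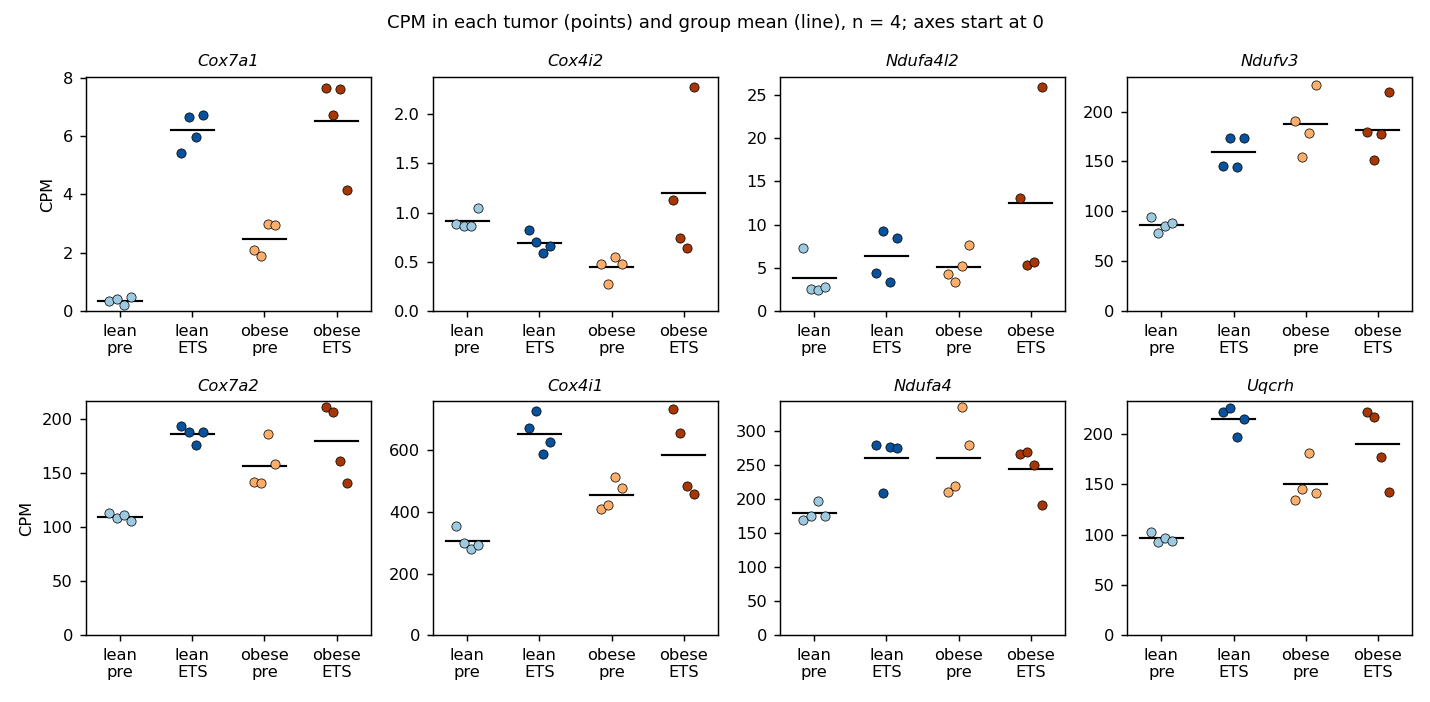
CPM (y axis, from 0) of 3 alternative complex IV subunits and Ndufv3 (upper row) and of 3 common partners and Uqcrh (lower row) in the 4 groups (x axis), with points for single tumors and lines for group means. Cox7a1 is lowest in lean pre-therapy tumors, intermediate in obese pre-therapy tumors and highest in both ETS groups, and obese ETS tumor 4 is the highest for Cox4i2 and Ndufa4l2.

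The 7 members left untested, each missing from the counts of 1 or more tumors, were tissue forms or copies. Ndufa11b, Cox7b2 and Cox8c had 0 counts in all 16 tumors. Ndufs6b, a copy of the complex I gene Ndufs6, was counted 0 to 14 times. Cox6b2, the testis form of subunit 6b, was counted 0 to 18 times. The muscle forms Cox6a2 and Cox8b were counted 0 to 86 and 0 to 56 times, with 86 for Cox6a2 in lean pre-therapy tumor 2 and 78 in obese ETS tumor 2, the tumors with the highest muscle marker sums of their groups. The ratio of Cox8b to Cox8a was 1.66 higher after ETS in lean tumors on the log2 scale (exact p = 0.114) and 2.09 higher in obese tumors (exact p = 0.0857), and no ratio of Cox6a2, Cox6b2 or Cox8b to their partner gave an exact p below the threshold. Among the tested members, Ndufb4b and Ndufb4c, near-identical copies of Ndufb4, rose in lean tumors by 0.59 each, the size seen in Ndufb4 itself (0.59), and reads could have been shared among the 3.

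Other genes of the pathway were set beside the subunits. Their counts stand against 21.0% of all tested genes rising and 22.8% falling after ETS in the lean host, 21.2% and 19.0% in the obese host, and 13.5% higher and 12.9% lower in obese tumors before therapy. All 13 mitochondrially encoded subunits rose after ETS in lean tumors, with a median log2 fold change of 1.42, and 10 of 13 rose in obese tumors, with a median of 0.91. They showed no call between obese and lean tumors before therapy (median 0.00) and none for the difference between the ETS effects (median 0.56). Their summed CPM in obese ETS tumors was 127088, 123441, 62695 and 45199, so tumors 3 and 4 were lower here as well. Of 49 assembly factors, 21 rose in lean tumors (median 0.24), with 4 rising and 6 falling in obese tumors, and 11 were higher in obese tumors before therapy. As shares, the 4 and 6 in obese tumors lay below those of all genes. Sdhaf4 and Sdhaf1, which build complex II, rose by 1.03 and 0.86 in lean tumors, Cox14, needed for complex IV, by 0.99, and Tmem70, needed for ATP synthase, by 0.64. Of 13 electron carriers and coenzyme Q enzymes, 5 rose and 1 fell in lean tumors, among them cytochrome c (Cycs, 0.43) and Coq9 (0.90).

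The tricarboxylic acid cycle enzymes rose in lean tumors in 12 of 17 cases (median 0.36). In obese tumors 2 rose and 2 fell (median -0.00), and before therapy 14 of 17 were higher in obese tumors (median 0.50). Of 13 regulators of mitochondrial biogenesis, 2 rose and 6 fell in lean tumors (median -0.29), and 1 rose and 9 fell in obese tumors (median -0.40). The gene that rose in both was Esrra, a nuclear receptor that acts with PGC-1 coactivators (lean 0.99, adjusted p = 0.000178, obese 0.42, adjusted p = 0.0385), and Tfb2m, a mitochondrial transcription factor, rose in lean tumors (0.46). Nrf1 and Gabpa, whose products bind 2 of the motifs searched above, fell by 0.46 and 0.30 on the log2 scale in lean tumors, and Pprc1, a PGC-1 family coactivator, fell by 0.90. Of 14 hypoxia targets, 6 rose in lean tumors (median 0.44) and 1 fell in obese tumors (median -0.12), and 10 were higher in obese tumors before therapy (median 0.95), among them Pgk1 and Bnip3.

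**Figure D5:**
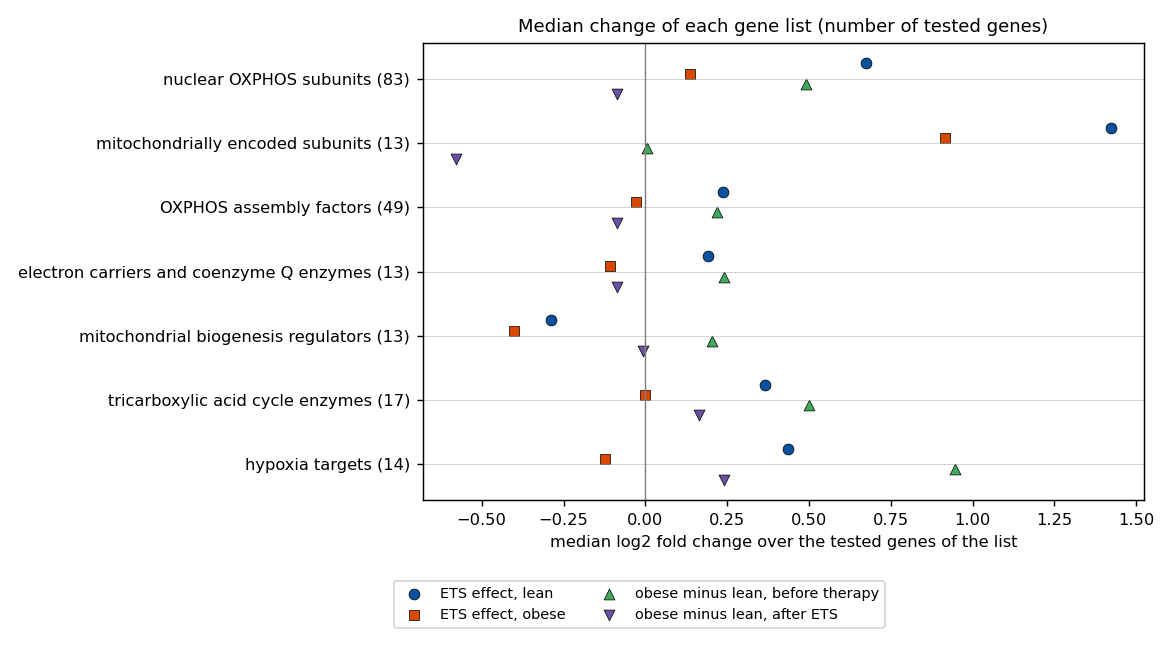
Median log2 fold change (x axis) over the tested genes of each list (y axis, number of genes in brackets) for the ETS effect in lean and obese tumors and for obese against lean tumors before therapy and after ETS. The mitochondrially encoded subunits are at 1.42 and 0.91 for the 2 ETS effects but at 0.00 between hosts before therapy, where the nuclear subunits are at 0.49.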

How the data were processed

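RNA from 16 B16F10 tumors, 4 in each of 4 groups, was sequenced as poly(A) libraries with paired reads. According to the submitters' processing notes and the methods of the study, the authors used bcl2fastq 2.20.0, Trimmomatic, HISAT2 2.1.0 and StringTie 2.1.3b with mm10. The deposited table holds, for each gene and tumor, a read count, which is not normalized, and TPM, scaled by the authors to transcript length and to a common total per tumor. The authors also deposited FPKM, scaled to transcript length and mapped fragments, in 16 columns that were not used. By the methods of the study the libraries were made with a stranded kit (TruSeq Stranded mRNA LT). The strand setting of the counting is not given in the sources used here.

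Groups came from the sample labels. Genes lacking reads in 1 or more tumors were left out (29568 of 45777), counts were scaled by TMM, and 4 group means were fitted over all 16 tumors by edgeR 4.0.16 (quasi-likelihood test, R 4.3.3), with 5 contrasts and Benjamini-Hochberg adjustment over all 16209 genes tested. An adjusted p under 0.05 was called. CPM uses TMM-scaled totals. All log2 fold changes are from this fit unless TPM is named, where limma 3.58.1 was run on log2(TPM + 1). Isoform ratios used log2(count + 1) and exact two-sided permutation tests. Alternatives included DESeq2 1.42.0, other scalings and filters, and leaving out each tumor. The procedure was tested on simulated data. Sources do not say how the tumors of a group were raised, so p-values measure the spread between these tumors.

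The members and gene lists were chosen with earlier results of these data known. The rule for per-tumor values picked the members with the largest change in either direction in each complex and contrast. It also picked alternative isoforms and their partners, Sdha to Sdhd, Cyc1, Cox7a2l, Ndufab1, and the 5 smallest p-values for the difference between ETS effects. For some of these, such as Sdha to Sdhd, Cyc1, Cox7a2l, Ndufab1, Ndufa12, Uqcrq and Atp5md, only fold changes or differences are given. Other genes named, such as Ndufs1, Ndufs4, Ndufs7, Ndufs8, Ndufa3, Ndufa11, Atp5b, Atp5pb and the genes of other lists, were chosen after their values were seen. Of 87 members matched to the annotation, 11 share over 10% of their exon bases with another gene.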

Additional observations from a re-analysis of the deposited data

Results flagged for a closer look

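Single tumors stood apart from the other 3 of their group in 8 of 136 groups examined by Dixon's ratio, and chance gives about 1 in 20. Lean pre-therapy tumor 1 was the highest for Ndufa13 (119 CPM, others 91.1 to 94.6), Ndufa4l2 (7.27 CPM, others 2.47 to 2.81), Atp5h (164 CPM, others 121 to 127) and the mean log2 CPM of complex V (7.55, others 7.31 to 7.35). Lean ETS tumor 2 was the highest for Ndufab1 (127 CPM, others 113 to 114) and the lowest for Ndufa4 (209 CPM, others 275 to 280). Cox4i2 was highest in lean pre-therapy tumor 4 (1.05 CPM, others 0.861 to 0.880), and Cox6b2 in obese ETS tumor 1 (0.218 CPM, others 0.0701 to 0.0824), at 4 to 12 counts in that group.

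The change after ETS differed between lean and obese tumors, by the test of the difference itself (edgeR's quasi-likelihood test, adjusted over all genes), for 53 of the 83 members tested, of which the 16 that the rule for per-tumor values picks are given here. On the log2 scale, lean minus obese, it was 0.70 for Ndufa12 and 0.92 for Ndufv3 in complex I and 0.66 for Sdhb in complex II. In complex III it was 0.83 for Uqcr11, 0.82 for Uqcrh and 0.76 for Uqcrq. In complex IV it was 2.70 for Cox7a1, 0.80 for Cox6a1, 0.73 for Cox4i1, 0.60 for Cox6b1, 0.60 for Cox7a2l, 0.56 for Cox7a2, 0.53 for Cox8a and -1.81 for Cox4i2. In complex V it was 0.81 for Atp5md and 0.74 for Atp5h.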

How the results depend on the processing

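No value examined for a named gene changed sign under any alternative run. The member median of obese against lean tumors after ETS did, from -0.09 by counts to above 0 by limma on TPM. On TPM it stood at -0.04 relative to the all-gene median of 0.10. For the named genes, 61 of 680 values lost their call with a tumor left out, 27 of 138 on TPM and 7 of 451 under other settings. By limma on TPM, the lean ETS effect had 52 rising members and a median of 0.30, the obese ETS effect 4 falling members, the difference 22 positive members and a median of 0.30, obese against lean tumors a median of 0.35 before therapy, and 2 higher members after ETS. All genes together shifted by -0.28, -0.16 and 0.10 in the lean effect, the difference and the comparison after ETS, and 15.7% of all calls in lean tumors were rises, against 48.0% by counts. With TPM rescaled without the 13 mitochondrially encoded genes, an alternative chosen after seeing the data, the values were a lean median of 0.48, 16 rising members in obese tumors, 27 positive differences, a median of 0.34 before therapy and 1 lower member after ETS. DESeq2 gave 14 rising members in obese tumors and 1 lower after ETS, its size factors in edgeR 1 lower after ETS, and keeping genes with a count of 0 gave 0 lower members before therapy. Of all 16209 genes, 3270 rose in obese tumors on rescaled TPM, 3790 by DESeq2, and 2586 to 3480 with an obese tumor left out. Leaving out each tumor in turn gave 73 to 80 rising members in lean tumors, 6 to 20 in obese tumors, 30 to 60 positive differences, 51 to 71 higher members before therapy and 0 after ETS. Members falling were 0, 0 to 1, 1, 0 to 1 and 0 to 1, and medians ran from 0.59 to 0.75, 0.07 to 0.20, 0.46 to 0.61, 0.42 to 0.53 and -0.13 to -0.01. Over all genes these fits gave 2729 to 3514 rising in lean tumors, 594 to 1370 positive differences and 1535 to 2226 higher before therapy. Tumors of the same number did not deviate together in every pair (r from -0.11 to 0.45 over 24 pairs, 11 over 0.1, with 7 of 16 tumors closest to their own number). With the replicate number as a block, 79, 8, 58 and 70 members were positive in the first 4 contrasts and 1 was lower after ETS. In that fit 3707, 3643, 1296 and 2445 of all 16209 genes were positive and 801 were lower after ETS. The causes of these shifts were not tested. Depth limits Cox4i2, at 14 to 130 counts per tumor.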
